A study of Mus musculus with 14 samples.

Results

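The genes described here are 40 genes of striated muscle and known targets of MEF2 transcription factors, set against all 19935 genes of the table. They come from a list of gene names drawn up with earlier results of these data known, and where a gene has several probe sets the brightest on average was to stand for it. All 40 were measured, each by exactly 1 probe set that the platform annotation ties to a single gene symbol. The list holds 7 troponins, 4 myosin heavy chains, 5 myosin light chains, 9 genes of actin, the M-band, the Z-disc, titin and desmin, and 3 genes of creatine kinase and myoglobin. It further holds 3 calcium release genes, 4 myogenic regulatory factors, the muscle histone methyltransferase Smyd1, 2 natriuretic peptides, and the immediate early genes Nr4a1 and Jun.

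Mouse embryonic fibroblasts of the ICR strain were transduced, cultured in a stem cell medium and lysed at day 6 or day 10. One group received SKO and an empty Flag vector (SKO+Flag), another SKO and HDAC7 (SKO+HDAC7), a further one SKO and MEF2C (SKO+MEF2C), and the control GFP without SKO. All 3 groups other than GFP thus carry the SKO factors, with 2 arrays a day in each, and GFP had 1 array a day. SKO is not written out in the labels; in reprogramming work it usually means Sox2, Klf4 and Oct4. Whether the numbered experiments were separate cultures is not stated, and the p-values cover no more than array-to-array spread, possibly of technical origin.

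MEF2 factors bind A/T-rich sites in the promoters and enhancers of muscle genes, where they act with the myogenic factors of the MyoD family in skeletal muscle and with GATA and SRF factors in the heart. Class IIa histone deacetylases, to which HDAC7 belongs, bind MEF2 directly and repress its targets, and signals that export them from the nucleus release that repression. Fibroblasts do not normally make sarcomeres. The question asked of each gene was therefore whether MEF2C raised it, whether HDAC7 lowered it, or both.

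Each transduced gene was high on the arrays labelled with it. Mef2c lay between 9.48 and 9.93 in SKO+MEF2C and between 6.31 and 6.81 elsewhere, and Hdac7 between 11.2 and 11.4 in SKO+HDAC7 and between 6.78 and 7.44 elsewhere. Of 8 fibroblast markers 7 were above the array median on all 14 arrays, among them Col1a1 (10.8 to 12.9) and Col1a2 (11.4 to 12.6), and Lum was mixed. Of 5 macrophage markers 4 were below it on all 14, and Cd68 (5.44 to 7.31) was below it on 1. Of 4 endothelial markers 3 were below it on all 14, and Tek (5.13 to 9.21) was below it on 2. Array medians lay between 5.68 and 5.76, all values between 4.12 and 13.9, and the correlation between replicate arrays was 0.994 to 0.997.

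The promoters of 4 genes are shown, because these members differed between the added factors and their windows hold motifs that were searched. Des, Tnni1 and Tnnt2 differed too and have E-boxes in their windows, which are not shown. They are RefSeq windows of assembly GRCm38.p6, from 250 bases before to 50 after the annotated start, read 5′ to 3′ on the gene's own strand. Capitals mark the MEF2 consensus in Jun, the SRF CArG box in Myom1 and Acta1, and the E-box CANNTG in Nppb. E-boxes in the windows of Jun, Myom1 and Acta1 are left unmarked. The windows are chr4:95052173-95052472 on the minus strand for Jun, chr17:71019307-71019606 on the plus strand for Myom1, chr8:123894726-123895025 on the minus strand for Acta1 and chr4:147985650-147985949 on the plus strand for Nppb. A genome build for the arrays is not given in the sources used here. These coordinates are those of the RefSeq windows alone.
Jun: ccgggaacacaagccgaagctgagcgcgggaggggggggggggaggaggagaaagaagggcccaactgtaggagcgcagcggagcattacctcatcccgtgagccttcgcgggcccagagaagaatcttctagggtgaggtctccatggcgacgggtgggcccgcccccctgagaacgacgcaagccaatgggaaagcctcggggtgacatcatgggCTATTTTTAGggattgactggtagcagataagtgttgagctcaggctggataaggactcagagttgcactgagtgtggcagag
Myom1: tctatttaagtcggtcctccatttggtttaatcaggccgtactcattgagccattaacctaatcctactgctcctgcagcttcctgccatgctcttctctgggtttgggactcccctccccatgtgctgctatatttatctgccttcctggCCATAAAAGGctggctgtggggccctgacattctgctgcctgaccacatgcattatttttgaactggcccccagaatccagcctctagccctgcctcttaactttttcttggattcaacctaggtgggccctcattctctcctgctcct
Acta1: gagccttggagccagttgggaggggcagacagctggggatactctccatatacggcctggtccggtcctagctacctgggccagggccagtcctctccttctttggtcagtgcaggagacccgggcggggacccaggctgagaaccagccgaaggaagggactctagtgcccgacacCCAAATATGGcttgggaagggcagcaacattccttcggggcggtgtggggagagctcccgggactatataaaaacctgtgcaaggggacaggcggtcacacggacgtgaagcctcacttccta
Nppb: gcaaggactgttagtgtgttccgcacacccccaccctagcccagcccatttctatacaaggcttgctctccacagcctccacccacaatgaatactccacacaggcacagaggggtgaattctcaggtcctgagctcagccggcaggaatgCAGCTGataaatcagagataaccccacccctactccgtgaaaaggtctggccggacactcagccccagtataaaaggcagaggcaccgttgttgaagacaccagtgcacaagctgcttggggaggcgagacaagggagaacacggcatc

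Promoter windows were found for 35 of the 40 members, 7 of which have more than 1 window. Myf6, Xirp1, Tnni2, Tnnt3 and Myod1 had no entry. The MEF2 consensus, searched on both strands, was in a window of 4 of the 35 genes (11.4%), against 3.02% of the 15612 measured genes with a window and 3.19% of all 32851 windows. The 4 genes were Jun, with its first base 33 bases before the start (position -33), Casq2 (-69), Myh8 (-99) and Ttn (-166). The CArG box, the site bound by serum response factor, was in 6 of the 35 (17.1%), against 1.63% of measured genes. Its carriers were Actc1 (-47), Myl7 (-61), Acta1 (-73), Myl3 (-85), Myom1 (-99) and Ldb3, whose overlapping windows hold it at -35 and -109. No MEF2 or CArG match overlapped a match of another motif.

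The E-box CANNTG, the core site of MyoD family factors, was in 29 of the 35 genes (82.9%) and in 71.6% of measured genes. The AP-1 site TGANTCA was in 1 member, Ldb3 (2.86%), and in 8.08% of measured genes, and the CRE TGACGTCA in 0 members and in 2.72% of measured genes. Of the 9 members that differed between the added factors, Jun held the MEF2 consensus, and Myom1 and Acta1 the CArG box. Casq2, Myh8 and Ttn, which also held the MEF2 consensus, were called in none of the 4 comparisons averaged over days. Nr4a1, which differed between the added factors, held none of the motifs searched. A match of letters is a description of the window and not a bound site.

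**Figure D1:**
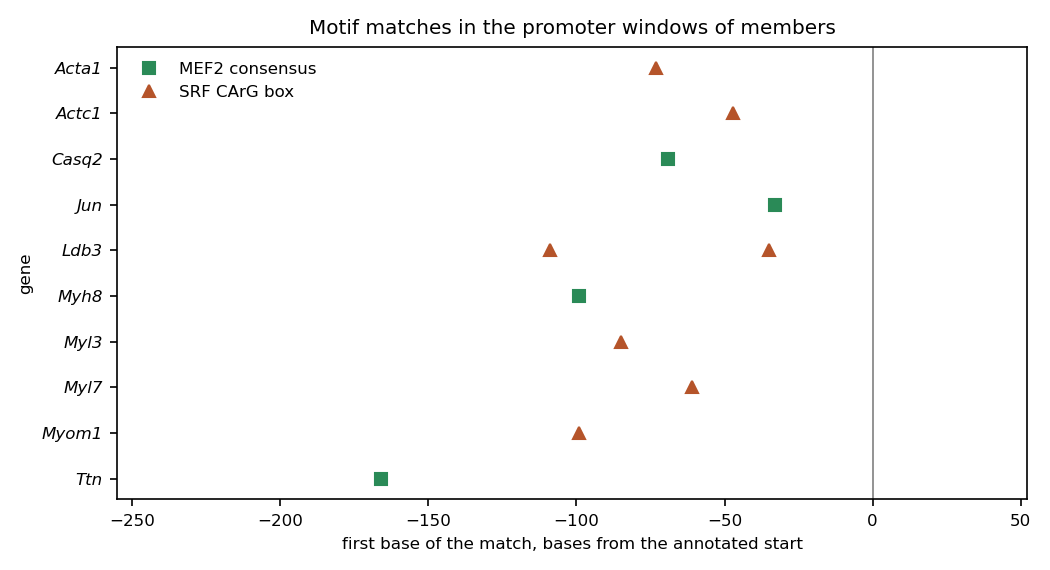
Position of each MEF2 consensus (squares) and SRF CArG box (triangles) in the promoter windows of the members that hold one. The horizontal axis is the distance in bases from the annotated start to the first base of the match, and the vertical axis names the gene. All matches lie before the start, from -166 in Ttn to -33 in Jun.

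On a log2 scale, 22 of the 40 members (55%) were below the array median over all probe sets on all 14 arrays, against 38.3% of all genes. Above it on all 14 were 7 members (17.5%), against 47.5% of all genes, namely Tnni2, Tnnt2, Tnnt3, Actc1, Acta1, Nr4a1 and Jun, while the other 11 were mixed. All 4 myosin heavy chains (4.80 to 5.48), all 5 myosin light chains (4.67 to 5.68) and all 3 calcium release genes (4.65 to 5.51) were among the 22. For 25 members the highest and the lowest of the 14 arrays lay less than 0.5 apart (62.5%, against 58.7% of all genes). No detection calls were used, so a dim value cannot be told from background. In bulk samples, moreover, fewer cells of a type and less RNA per cell cannot be told apart.

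MEF2C was followed by higher levels of 4 muscle structural genes, Myom1, Des, Tnni1 and Acta1, and by lower levels of Nppb and Jun. Of the 4, Myom1 was above the array median on 3 of 14 arrays, Tnni1 on 5, Des on 8 and Acta1 on all 14. HDAC7 was followed by lower Tnnt2 and Nr4a1 and by higher Nppb, Jun and Myod1. No member was called higher with MEF2C and lower with HDAC7, although Tnnt2, lower with HDAC7, missed the call with MEF2C narrowly (limma adjusted p = 0.0686) and passed it under 4 of 17 alternatives. A pair of members, Nppb and Jun, were called in the opposite sense, lower with MEF2C and higher with HDAC7. How many of all genes were called in either combined sense was not counted, so these counts have no share to stand beside. Outside the members, Tpm1, Cryab, Fbxo32, Fabp3, Eno3 and Nr4a3 were among genes called higher with MEF2C and lower with HDAC7. Tek was called in the opposite sense, and Eya1 was called higher with both factors. These genes were picked from the lists described below, and no share over all genes stands beside them either. A gene was called at a limma Benjamini-Hochberg adjusted p under 0.05 over all 19935 genes, with each difference averaged over both days.

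In SKO+MEF2C against SKO+Flag, 6 of 40 members were called (15%), against 10.3% of all genes. In SKO+HDAC7 against SKO+Flag, 5 were called (12.5%), against 10.9% of all genes. In the direct comparison of SKO+MEF2C with SKO+HDAC7, 9 were called (22.5%), against 22% of all genes. The shares of members were thus near those of the whole table. The median differences over the members were 0.02, 0.04 and 8e-04 on the log2 scale, beside 0.0079, 0.018 and -0.0138 over all genes. The first 2 comparisons share the SKO+Flag arrays, so the values of a member in both are given side by side and are not independent.

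**Figure D2:**
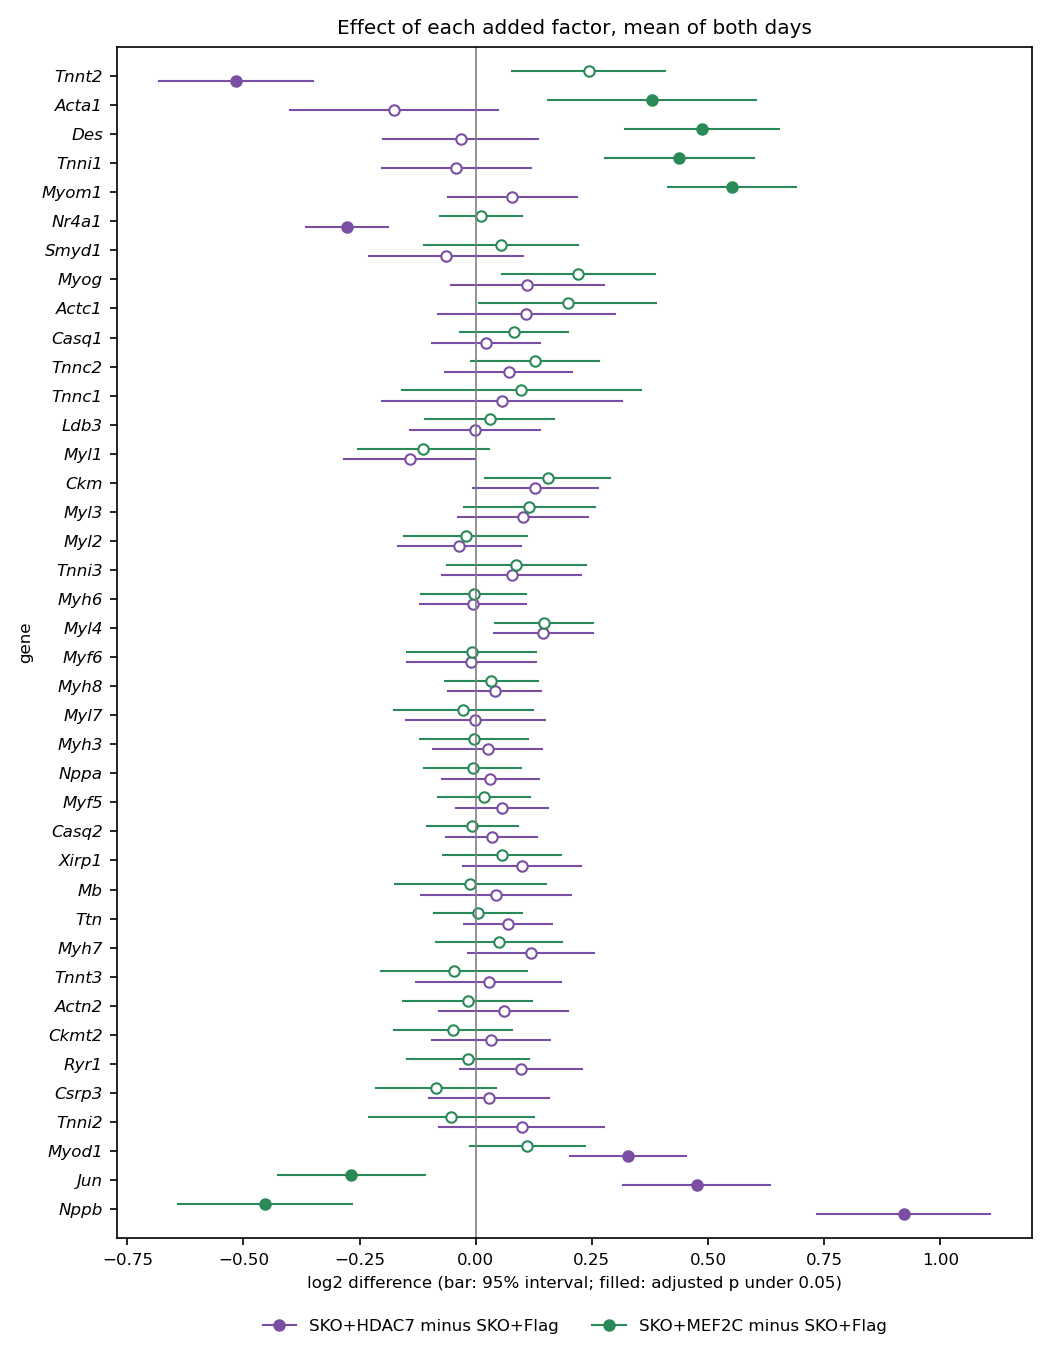
Log2 difference of each of the 40 members (vertical axis) in SKO+HDAC7 and in SKO+MEF2C against SKO+Flag, averaged over both days. Bars are 95% intervals, filled points are called, and genes are ordered by the difference between SKO+MEF2C and SKO+HDAC7. Nppb and Jun, at the bottom, lie to the right with HDAC7 and to the left with MEF2C.

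Myom1 encodes myomesin, which crosslinks thick filaments at the M-band. In the order day 6 then day 10, its log2 values were 5.19, 5.14, 4.84 and 5.03 in SKO+Flag and 5.74, 5.61, 5.56 and 5.49 in SKO+MEF2C. They were 5.27, 5.07, 5.14 and 5.03 in SKO+HDAC7, and 6.26 and 6.37 in GFP. All 4 SKO+MEF2C arrays were above all other SKO arrays and below both GFP arrays, while SKO+HDAC7 and SKO+Flag overlapped. The difference with MEF2C was 0.55 ± 0.06 (SE; 1.47-fold; limma adjusted p = 0.000235), and that with HDAC7 0.08 ± 0.06 (adjusted p = 0.486). Its window holds a CArG box, printed above in capitals.

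Des encodes desmin, the intermediate filament that ties Z-discs together. For Des the log2 values were 5.81, 5.88, 5.45 and 5.14 in SKO+Flag and 6.21, 6.27, 5.96 and 5.80 in SKO+MEF2C. They were 5.71, 5.74, 5.48 and 5.24 in SKO+HDAC7, and 6.39 and 6.36 in GFP. Within each day SKO+MEF2C stood above SKO+Flag without overlap, although the day 10 arrays of SKO+MEF2C overlapped the day 6 arrays of SKO+Flag. The difference with MEF2C was 0.49 ± 0.08 (1.40-fold; limma adjusted p = 0.00186) and that with HDAC7 -0.03 ± 0.08 (adjusted p = 0.843).

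The troponins, which make muscle filaments respond to calcium, had 1 member called with each added factor against SKO+Flag. Tnni1, the troponin I of slow skeletal fibres, had log2 values of 5.42, 5.74, 5.68 and 5.55 in SKO+Flag and 5.88, 5.84, 6.30 and 6.13 in SKO+MEF2C. They were 5.59, 5.53, 5.61 and 5.50 in SKO+HDAC7, and 5.50 and 5.39 in GFP. The 4 SKO+MEF2C arrays were above all the other arrays, which overlapped. The difference with MEF2C was 0.44 ± 0.07 (1.36-fold; limma adjusted p = 0.00279) and that with HDAC7 -0.04 ± 0.07 (adjusted p = 0.783).

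Tnnt2, the cardiac troponin T, is also made in embryonic skeletal muscle. Its log2 values were 6.23, 6.29, 7.03 and 6.85 in SKO+Flag and 5.83, 6.16, 6.19 and 6.18 in SKO+HDAC7. They were 6.49, 6.68, 7.08 and 7.14 in SKO+MEF2C, and 5.88 and 6.42 in GFP. All 4 SKO+HDAC7 arrays were below all SKO+Flag arrays, while SKO+MEF2C lay above SKO+Flag within each day. Tnnt2 fell with HDAC7 by 0.52 ± 0.07 on the log2 scale (limma adjusted p = 0.00127), and the difference with MEF2C, 0.24 ± 0.07, did not pass (adjusted p = 0.0686). The latter passed among genes above the median level (limma adjusted p = 0.0311), with the replicate number as a block within each day (0.0297), in a fit to the compared groups alone (0.0497) and without SKO+Flag day 10 replicate 1 (0.0452), over a range of 0.0297 to 0.227. Between SKO+MEF2C and SKO+HDAC7 it was 0.76 ± 0.07 (1.69-fold; adjusted p = 2.6e-05). The other 5 troponins, Tnni2, Tnni3, Tnnt3, Tnnc1 and Tnnc2, were called in neither comparison with SKO+Flag.

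Acta1 encodes skeletal alpha-actin of the thin filament. Its log2 values were 7.02, 6.95, 6.58 and 6.32 in SKO+Flag and 7.31, 7.64, 6.61 and 6.83 in SKO+MEF2C. They were 6.44, 6.84, 6.42 and 6.47 in SKO+HDAC7, and 7.58 and 7.40 in GFP. Within each day SKO+MEF2C was above SKO+Flag, and over both days they overlapped. The difference with MEF2C was 0.38 ± 0.10 (1.30-fold; limma adjusted p = 0.0369), that with HDAC7 -0.18 ± 0.10 (adjusted p = 0.314), and that between SKO+MEF2C and SKO+HDAC7 0.56 ± 0.10 (adjusted p = 0.0022). The call with MEF2C was lost when 1 of 6 arrays was left out, at differences of 0.40 and 0.36 without SKO+Flag day 6 replicate 1 or 2, 0.32 without SKO+Flag day 10 replicate 2, 0.30 without SKO+MEF2C day 6 replicate 2, and 0.43 and 0.33 without SKO+MEF2C day 10 replicate 1 or 2. Its adjusted p ranged from 0.0106 to 0.14 over all 17 alternatives.

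Acta1 shares nearly all of its protein sequence with the smooth muscle actin Acta2, which lay between 9.64 and 12.5 and differed in the same directions, by 0.65 ± 0.04 with MEF2C and -0.75 ± 0.04 with HDAC7. Whether probe sets of the actins cross-hybridise was not tested. The cardiac actin Actc1, between 6.17 and 6.91, was called in neither comparison (0.20 ± 0.09 with MEF2C, 95% interval 0.0068 to 0.39, and 0.11 ± 0.09 with HDAC7, 95% interval -0.08 to 0.30). Without SKO+Flag day 10 replicate 1 Actc1 was called with MEF2C (limma adjusted p = 0.0282). For Actc1 all SKO+MEF2C arrays were above all SKO+Flag arrays, although the difference was not called. The remaining structural members, Actn2, Csrp3, Ldb3, Ttn and Xirp1, of the Z-disc, its partners and titin, were not called in any of the 4 comparisons averaged over days.

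Nppb encodes the B-type natriuretic peptide, a hormone of the stressed heart. On the log2 scale it was at 7.16, 6.87, 7.13 and 7.16 in SKO+Flag and 8.14, 7.86, 7.97 and 8.04 in SKO+HDAC7. It was at 6.43, 6.63, 6.61 and 6.82 in SKO+MEF2C, and 5.27 and 5.07 in GFP. The 4 vectors did not overlap, in the order GFP, SKO+MEF2C, SKO+Flag, SKO+HDAC7. The difference with HDAC7 was 0.92 ± 0.08 (1.89-fold; limma adjusted p = 5.71e-05), rank 10 from the top of all 19935 genes, and that with MEF2C -0.45 ± 0.08 (adjusted p = 0.00558). Between SKO+MEF2C and SKO+HDAC7 it was -1.38 ± 0.08 (adjusted p = 6.6e-07). Nppa, the atrial natriuretic peptide gene, was below the array median on all 14 arrays and differed by 0.03 with HDAC7 (adjusted p = 0.744).

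Jun encodes the AP-1 subunit c-Jun, and its promoter is a known target of MEF2 factors. Its log2 values were 7.30, 7.48, 7.47 and 7.56 in SKO+Flag and 7.73, 7.90, 8.19 and 7.89 in SKO+HDAC7. They were 7.10, 7.16, 7.23 and 7.24 in SKO+MEF2C, and 7.83 and 7.93 in GFP. The 3 SKO groups did not overlap, with SKO+MEF2C lowest and SKO+HDAC7 highest. The difference with HDAC7 was 0.48 ± 0.07 (1.39-fold; limma adjusted p = 0.00158) and that with MEF2C -0.27 ± 0.07 (adjusted p = 0.0375). The printed window of Jun holds a match to the MEF2 consensus, and binding at this match was not tested.

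The lower level of Jun with MEF2C was the less stable of its differences. The call was lost when 1 of 6 arrays was left out, at -0.22 and -0.25 without SKO+Flag day 6 or day 10 replicate 2, -0.25 and -0.28 without SKO+MEF2C day 6 replicate 1 or 2, and -0.27 without either SKO+MEF2C day 10 array. The limma adjusted p ranged from 0.0156 to 0.118 over 17 alternatives. The direct difference of -0.74 ± 0.07 between SKO+MEF2C and SKO+HDAC7 (adjusted p = 2.15e-05) kept its call under all of its 17 alternatives.

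Nr4a1 encodes the orphan nuclear receptor Nur77, known from thymocytes as a gene that MEF2 activates and HDAC7 represses. The log2 values of Nr4a1 were 9.06, 9.13, 9.12 and 9.16 in SKO+Flag and 8.82, 8.76, 8.87 and 8.90 in SKO+HDAC7. They were 9.09, 9.04, 9.19 and 9.19 in SKO+MEF2C, and 7.23 and 7.25 in GFP. All 4 SKO+HDAC7 arrays were below all SKO+Flag and SKO+MEF2C arrays, which overlapped. Nr4a1 fell with HDAC7 by 0.28 ± 0.04 on the log2 scale (limma adjusted p = 0.00122), and its difference with MEF2C was 0.01 ± 0.04 (95% interval -0.08 to 0.0998; adjusted p = 0.931).

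Among the myogenic regulatory factors, which start and drive the skeletal muscle programme, Myod1 was the one called with an added factor. Its log2 values were 5.39, 5.32, 5.59 and 5.55 in SKO+Flag and 5.90, 5.82, 5.81 and 5.65 in SKO+HDAC7. They were 5.66, 5.59, 5.62 and 5.43 in SKO+MEF2C, and 5.86 and 5.78 in GFP. All 4 SKO+HDAC7 arrays were above all SKO+Flag arrays, and all 14 values lay between 5.32 and 5.90, around the array medians. The difference with HDAC7 was 0.33 ± 0.06 (1.26-fold; limma adjusted p = 0.00354) and that with MEF2C 0.11 ± 0.06 (adjusted p = 0.286).

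Between SKO+MEF2C and SKO+HDAC7 Myod1 differed by -0.22 ± 0.06 (limma adjusted p = 0.0174). That call was lost without SKO+HDAC7 day 6 or day 10 replicate 1 (-0.20 and -0.18) and without SKO+MEF2C day 6 or day 10 replicate 2 (-0.20 and -0.17), with adjusted p from 0.00498 to 0.076 over 16 alternatives. Myog, the factor of terminal differentiation, lay between 5.03 and 5.50 and differed by 0.22 ± 0.07 with MEF2C (adjusted p = 0.094; 0.0274, and so called, without SKO+Flag day 10 replicate 1). Myf5 and Myf6 were below the array median on all 14 arrays and were called with neither added factor.

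**Figure D3:**
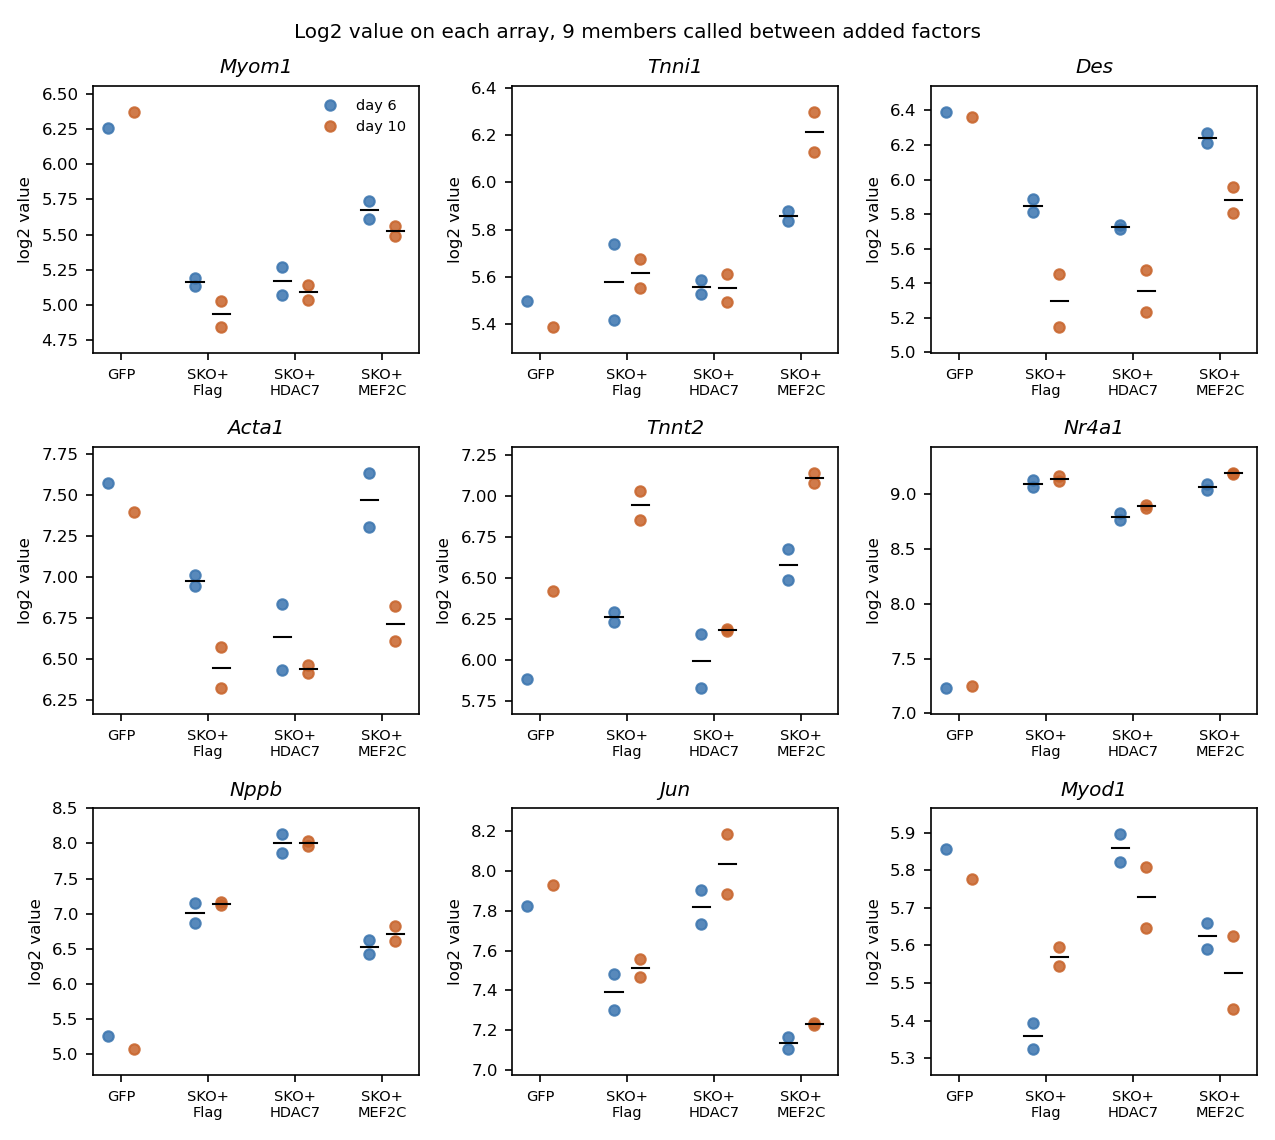
Log2 value on each array for the 9 members called between SKO+MEF2C and SKO+HDAC7, with day 6 in blue and day 10 in orange; bars are means of 2 arrays, and each panel has its own vertical scale. Myom1 and Tnni1 stand highest among the SKO groups in SKO+MEF2C, Nppb and Jun in SKO+HDAC7, and Tnnt2 and Nr4a1 are lowest among them in SKO+HDAC7.

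In 31 of the 40 members neither added factor gave a call against SKO+Flag. Of these, Actc1, Myl4, Tnni2, Tnnt3 and Myf5 were called against GFP, and 26 members were called in none of the 4 comparisons averaged over days. The shares of all genes left uncalled in these combinations were not counted, so the counts are not a trait of the members. Taken singly, 10.3% of all genes were called with MEF2C, 10.9% with HDAC7 and 35.7% in SKO+Flag against GFP. Leaving out 1 array gave calls against GFP to Tnni3 (limma adjusted p = 0.0346) and Myl3 (0.0486) without SKO+Flag day 6 replicate 2, and to Myl3 (0.0171) and Myog (0.0174) without SKO+Flag day 10 replicate 1. The 26 lay between 4.50 and 6.13, with a range over the 14 arrays of 0.14 to 0.66 and a median range of 0.35. Their differences ran from -0.11 to 0.22 with MEF2C and from -0.14 to 0.13 with HDAC7, and their 95% intervals reached from -0.25 to 0.39 and from -0.28 to 0.31. They include all 4 myosin heavy chains (Myh3, Myh6, Myh7, Myh8), the motor proteins of the thick filament, Ckm, Ckmt2 and Mb of muscle energy supply, and Ryr1, Casq1 and Casq2 of calcium release. Heavy chain genes resemble one another, and cross-hybridisation of their probe sets was not tested.

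The days were compared next. With MEF2C at day 6, 1 member, Myom1 (0.51 ± 0.09; limma adjusted p = 0.0116), was called (2.5% of members, against 3.1% of all genes). At day 10, Tnni1 (0.60 ± 0.10; adjusted p = 0.00504), Myom1 (0.59 ± 0.09; adjusted p = 0.00217) and Des (0.58 ± 0.11; adjusted p = 0.00729) were called, 3 members against 7.01% of all genes. At day 6 Tnni1 differed by 0.28 ± 0.10 (adjusted p = 0.228) and Des by 0.39 ± 0.11 (adjusted p = 0.0857). The count at day 6 was 0 without SKO+Flag day 6 replicate 1 or 2 or without SKO+MEF2C day 6 replicate 1, and the count at day 10 was 1 without SKO+MEF2C day 10 replicate 1.

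With HDAC7 at day 6, 4 members were called, against 4.58% of all genes. These were Nppb (0.99 ± 0.12; limma adjusted p = 0.00123), Myod1 (0.50 ± 0.08; adjusted p = 0.00645), Jun (0.43 ± 0.10; adjusted p = 0.0404) and, lower, Nr4a1 (-0.30 ± 0.06; adjusted p = 0.0141). At day 10, 4 members were called, against 7.27% of all genes. Here they were Nppb (0.86 ± 0.12; adjusted p = 0.00144), Jun (0.52 ± 0.10; adjusted p = 0.00983) and, lower, Tnnt2 (-0.76 ± 0.11; adjusted p = 0.00142) and Nr4a1 (-0.25 ± 0.06; adjusted p = 0.0217). The count at day 6 was 2 without SKO+Flag day 6 replicate 2 or SKO+HDAC7 day 6 replicate 2 and 1 without SKO+HDAC7 day 6 replicate 1. At day 10 it was 2 without replicate 1 of SKO+Flag or of SKO+HDAC7.

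The change of each effect between days was tested itself, and limma called 0 of 40 members for MEF2C, against 0.0853% of all genes, and 0 of 40 for HDAC7, against 0.125%. At an unadjusted p under 0.05 there were 1 (2.5%) and 3 members (7.5%), beside 6.71% and 11.9% of all genes. For Tnnt2 the HDAC7 effect moved by -0.49 ± 0.15 from day 6 to day 10 (limma adjusted p = 0.242), and for Myod1 by -0.34 ± 0.11 (adjusted p = 0.281). A call at one day and not at the other is therefore not shown to be a difference between days.

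The members Tnnt2, Des and Acta1 were called between days in some of the SKO groups, and none of them in all. In SKO+Flag Tnnt2 was higher at day 10 than at day 6 by 0.68 ± 0.11 (limma adjusted p = 0.0023), and Des and Acta1 were lower (-0.55 ± 0.11, adjusted p = 0.00858, and -0.53 ± 0.14, adjusted p = 0.0469), so that 3 members were called, against 8.08% of all genes. In SKO+MEF2C Acta1 (-0.75 ± 0.14; adjusted p = 0.0156) and Tnnt2 (0.53 ± 0.11; adjusted p = 0.021) were called, 2 members against 3.08% of all genes. In SKO+HDAC7 Des was called (-0.37 ± 0.11; adjusted p = 0.0419), 1 member against 14.6% of all genes.

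Tnnt2 in SKO+HDAC7 differed between days by 0.19 ± 0.11 (limma adjusted p = 0.276), with day 10 arrays of 6.19 and 6.18 beside day 6 arrays of 5.83 and 6.16. Des and Acta1 were thus lower at day 10 while Tnnt2 was higher, in the same SKO+Flag arrays. These counts were small and moved with single arrays. Without SKO+Flag day 6 replicate 2 the count in SKO+Flag was 1. In SKO+HDAC7 it was 0 without day 6 replicate 1 or day 10 replicate 2 and 3 without day 10 replicate 1. In SKO+MEF2C it was 1 without either day 6 array and 0 without either day 10 array.

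The comparison of SKO+Flag with GFP had the most members called of the 4 comparisons averaged over days. In SKO+Flag against GFP, averaged over both days, 13 of 40 members were called (32.5%), 3 higher and 10 lower, against 35.7% of all genes. The median difference of the members was -0.11, against -0.0368 over all genes. The GFP groups had 1 array a day, so their spread is taken from the other groups.

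Nppb was higher in SKO+Flag by 1.91 ± 0.10 (3.75-fold; limma adjusted p = 7.5e-08) and Nr4a1 by 1.88 ± 0.05 (3.67-fold; adjusted p = 3.11e-10). Tnnt2 was higher by 0.45 ± 0.09 (adjusted p = 0.00258), without overlap within either day. Of the lower genes Myom1 led at -1.27 ± 0.08 (adjusted p = 1.83e-07), followed by Des at -0.81 ± 0.09 (adjusted p = 3.58e-05), Acta1 at -0.77 ± 0.12 (adjusted p = 0.000494), Jun at -0.43 ± 0.09 (adjusted p = 0.00279) and Myod1 at -0.35 ± 0.07 (adjusted p = 0.00198). All 4 SKO+Flag arrays were below both GFP arrays for each of these 5 genes, whose values are given above. The share of all genes that separate groups without overlap was not counted, here or for other members.

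A further 5 members were called in this comparison alone. Actc1, the cardiac actin, was at 6.55, 6.56, 6.55 and 6.17 in SKO+Flag and at 6.88 and 6.91 in GFP (-0.44 ± 0.11; limma adjusted p = 0.00734). Myl4, the atrial and embryonic essential light chain, was at 5.34, 5.46, 5.32 and 5.27 against 5.68 and 5.66 (-0.32 ± 0.06; adjusted p = 0.00125). Tnni2, the troponin I of fast skeletal fibres, was at 6.12, 6.21, 6.10 and 5.95 against 6.45 and 6.38 (-0.31 ± 0.10; adjusted p = 0.0278). For these 3 genes no SKO+Flag array reached a GFP array. Tnnt3, the fast skeletal troponin T, was at 5.76, 5.87, 6.09 and 5.79 against 6.27 and 6.08, overlapping at day 10 (-0.30 ± 0.09; adjusted p = 0.0205). Myf5, the earliest myogenic factor, was at 4.54, 4.60, 4.60 and 4.62 against 4.73 and 4.81 (-0.18 ± 0.06; adjusted p = 0.027).

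Calls of 3 of these 5 genes did not hold under every alternative. Tnni2 was lost without SKO+Flag day 6 replicate 1 (-0.29; limma adjusted p = 0.0702) and without SKO+Flag day 10 replicate 2 (-0.28; adjusted p = 0.0664), over a range of 0.0114 to 0.0702. Tnnt3 was lost without SKO+Flag day 6 replicate 1 (-0.27; adjusted p = 0.0574) and in a fit to the compared groups alone (-0.30; adjusted p = 0.0854), over a range of 0.00241 to 0.0854. Myf5 kept its direction, but its call was lost after median centring (-0.14; adjusted p = 0.0711), after quantile normalization (-0.14; adjusted p = 0.0664), in a fit to the compared groups alone (adjusted p = 0.0814) and without SKO+Flag day 6 replicate 1 (-0.16; adjusted p = 0.0669), over a range of 0.00819 to 0.0814.

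Set against this, Myom1, Des and Acta1 were lower in SKO+Flag than in GFP and, with MEF2C added, higher than in SKO+Flag. Nppb was higher in SKO+Flag than in GFP, lower in SKO+MEF2C than in SKO+Flag and higher again in SKO+HDAC7. These comparisons share the SKO+Flag arrays, and the values of all arrays are those given above.

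**Figure D4:**
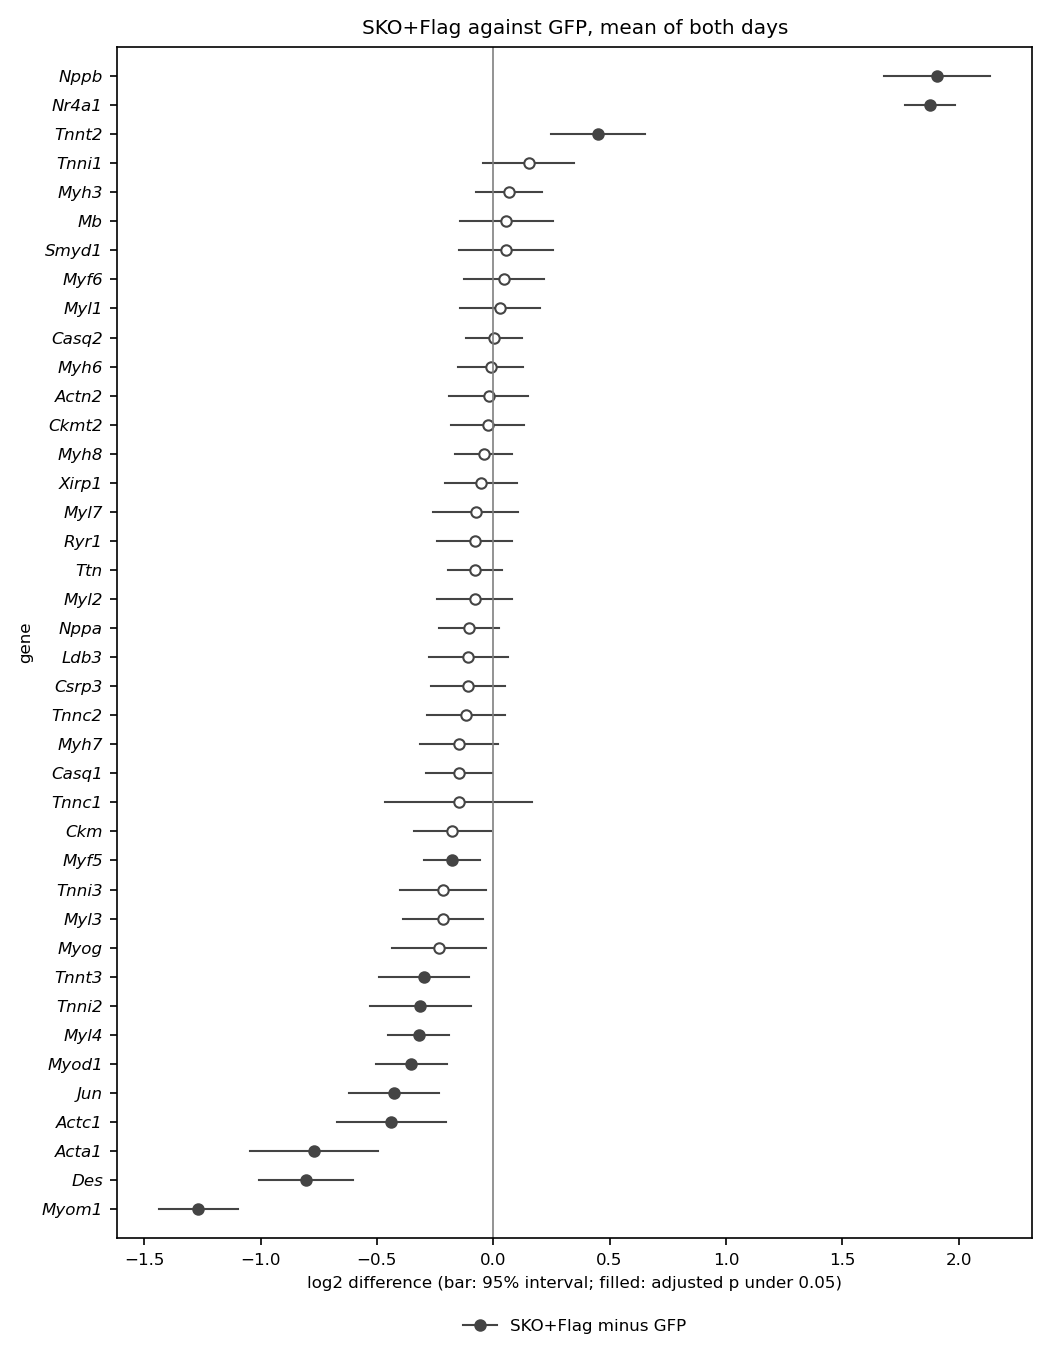
Log2 difference of each of the 40 members (vertical axis) between SKO+Flag and GFP, averaged over both days, with 95% intervals; filled points are called. Nppb and Nr4a1 stand at 1.91 and 1.88 at the top and Myom1 at -1.27 at the bottom.

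Other genes of striated muscle were read from lists beside the members. Calls of these genes come from the main fit, and no alternatives are given for them. Their counts stand beside shares over all genes of 5.49% higher and 4.82% lower with MEF2C, 4.83% and 6.06% with HDAC7, 11.8% and 10.3% between SKO+MEF2C and SKO+HDAC7, and 17.5% and 18.2% in SKO+Flag against GFP. Of 38 further sarcomere and Z-disc genes 8 were higher (21.1%) and 0 lower with MEF2C, with the cardiac ankyrin repeat gene Ankrd1 at 0.52, the tropomyosins Tpm2 at 0.49 and Tpm1 at 0.47, and the fast myosin Myh2 at 0.39. With HDAC7 1 was higher (2.63%) and 3 lower (7.89%), among them the muscle ubiquitin ligase gene Fbxo32 at -0.66, Tpm1 at -0.46 and the small heat shock protein gene Cryab at -0.39. The difference between SKO+MEF2C and SKO+HDAC7 equals that with MEF2C minus that with HDAC7, so it is not separate evidence. There 8 were higher (21.1%) and 0 lower, with Fbxo32 at 0.98, Tpm1 at 0.92 and Cryab at 0.75. The median differences of the list were 0.06, 0.05 and -0.01, so the middle of the list lay near 0.

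Of 21 calcium handling genes 5 were higher and 0 lower with MEF2C, led by the junctophilin Jph1 at 0.68 and the potassium channel Kcnj2 at 0.45, and with HDAC7 0 were higher and 1 lower, the calcium pump Atp2a2 at -0.16. In the direct comparison of the added factors 5 were higher in SKO+MEF2C and 1 lower, the embryonic acetylcholine receptor subunit Chrng. Of 13 genes of muscle energy metabolism 2 were higher with MEF2C, the fatty acid binding protein Fabp3 at 1.52 ± 0.07 and the muscle enolase Eno3 at 0.42 ± 0.05. With HDAC7 Ckb (-0.68), Eno3 (-0.53), Fabp3 (-0.39) and Pfkm (-0.16; limma adjusted p = 0.0493) were lower and Ckmt1 (0.54) and Cox7a1 (0.38) higher. The same 6 genes were called between SKO+MEF2C and SKO+HDAC7, 4 higher and 2 lower. The creatine kinases therefore moved apart with HDAC7: brain-type Ckb was lower and ubiquitous mitochondrial Ckmt1 higher, while the muscle forms Ckm (0.13) and Ckmt2 (0.03) were not called.

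Of 21 transcription factors of muscle and heart 3 were higher and 1 lower with MEF2C, namely Meox2 (0.39), Eya1 (0.26) and Six4 (0.25), and the basic helix-loop-helix repressor Msc (-0.36). With HDAC7 Eya1 (0.53) and Gata4 (0.27) were higher and Meox2 (-0.36), Six4 (-0.27) and Tbx5 (-0.16; limma adjusted p = 0.0496) lower. The list had, in SKO+MEF2C against SKO+HDAC7, 4 higher (Tbx5, Srf, Six4, Meox2) and 4 lower (Gata4, Eya1, Msc, Tcf3). Of 19 immediate early and other reported MEF2 targets 4 were higher with MEF2C, Nr4a3 (0.45), Atf3 (0.45), Nr4a2 (0.34) and Hdac9 (0.31). Egr1 (-0.23) was lower, with a limma adjusted p that rounds to the threshold of 0.05. With HDAC7 0 were higher and 3 lower, Klf6 (-0.22), Nr4a3 (-0.22) and Fosl2 (-0.21). Directly compared, 6 were higher in SKO+MEF2C than in SKO+HDAC7 and 3 lower, the latter Egr1, Bdnf and Homer1. Nr4a1 and Nr4a3 were thus both lower with HDAC7, and Nr4a2 differed by -0.28 (limma adjusted p = 0.0522).

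Markers of smooth muscle were in part higher with MEF2C, where Myom1, Des, Tnni1 and Acta1 were too, and in part lower with HDAC7, where those 4 members were not called. Of 6 such markers 4 were higher and 0 lower with MEF2C, Cnn1 (1.05), Tagln (0.97), Acta2 (0.65) and Myh11 (0.46), and 0 were higher and 3 lower with HDAC7, Tagln (-1.10), Acta2 (-0.75) and Cnn1 (-0.66). All 6 were lower in SKO+Flag than in GFP, as were Myom1, Des and Acta1, while Tnni1 differed there by 0.15 (limma adjusted p = 0.213). The mean log2 level of the 6 lay between 6.97 and 7.81 in SKO+Flag, 6.53 and 7.40 in SKO+HDAC7, 7.70 and 8.20 in SKO+MEF2C, and 8.75 and 8.91 in GFP. Their part in the differences of Myom1, Des, Tnni1 and Acta1 was not tested.

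Markers of striated muscle cells were counted in the same way. Of 6 cardiomyocyte markers 1 was higher with MEF2C, Ryr2 at 0.25, and 1 lower with HDAC7, the member Tnnt2, while 3 (Myh6, Nppa, Ryr2) were below the array median and 3 (Nkx2-5, Tnnt2, Actc1) above it on all 14 arrays. Of 6 skeletal myoblast markers 0 were called with MEF2C and 1 with HDAC7, the member Myod1; Pax7 and Myf5 were below the array median on all 14 arrays, and Mymk (5.56 to 6.32) was below it on 3. Their mean log2 level lay between 5.26 and 5.43 in SKO+Flag, 5.39 and 5.66 in SKO+HDAC7, 5.35 and 5.43 in SKO+MEF2C, and 5.44 and 5.56 in GFP. The fibroblast markers had 1 higher and 0 lower of 8 with MEF2C, 4 and 4 with HDAC7, and 0 and 8 in SKO+Flag against GFP. With MEF2C and then HDAC7, 0 and 1 of 5 macrophage markers were higher and 0 and 0 lower, 1 and 1 of 4 endothelial markers were higher and 1 and 0 lower, and 0 and 2 of 4 neural and glial markers were higher and 0 and 0 lower.

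**Figure D5:**
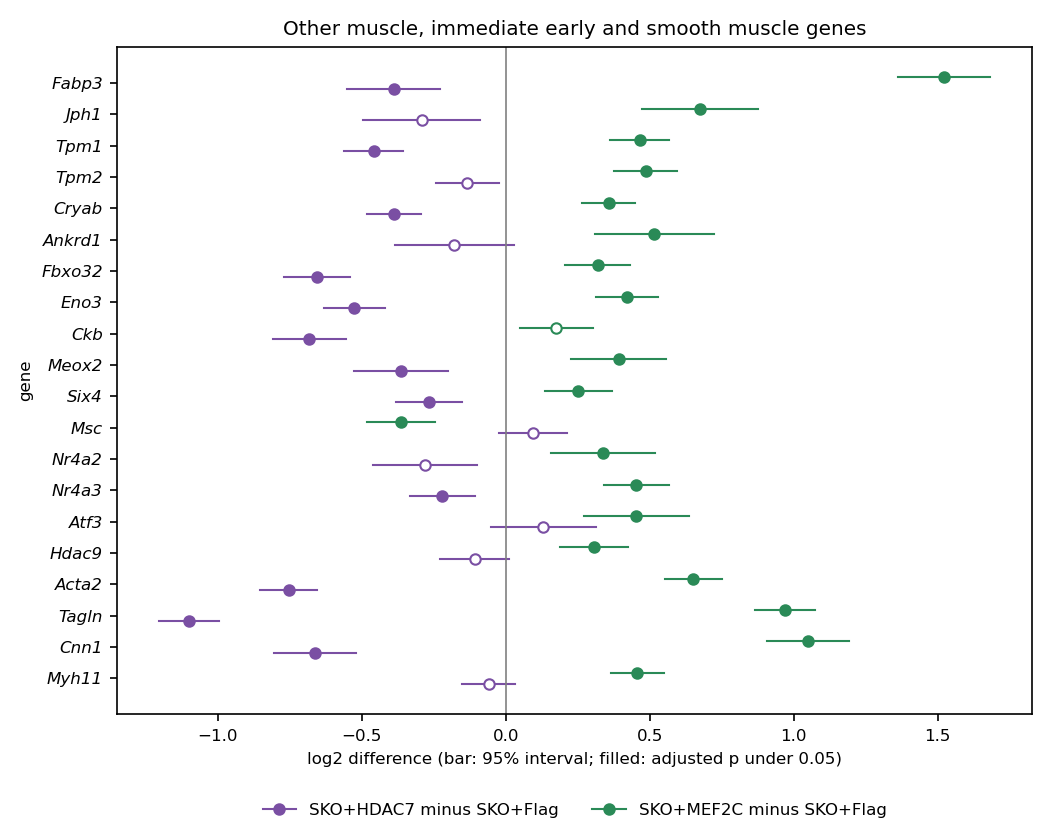
Log2 difference in SKO+HDAC7 and SKO+MEF2C against SKO+Flag, averaged over both days, for 20 genes (vertical axis) of the lists beside the members, with 95% intervals; filled points are called. Fabp3 at 1.52 is the highest with MEF2C and Tagln at -1.10 the lowest with HDAC7 among the genes drawn, which were chosen from the called genes. List genes called higher with HDAC7, among them Ckmt1 (0.54), Eya1 (0.53) and Cox7a1 (0.38), are not drawn.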

How the data were processed

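Each of 14 RNA samples was hybridised to 1 Affymetrix array for whole transcripts, as biotin-labelled cDNA, per the labels' protocols. Feeder cells were removed before lysis. The authors deposited 1 log2 value per probe set and array; the submitters' processing notes name RMA and Partek and give no version. They were used as deposited, with no further normalization or filter. A free-text description on all arrays names another kind of sample and was not used.

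Of 28815 probe sets, 21780 had 1 gene symbol, 1605 had several and 5430 no name here. Symbols were checked by Entrez ID against RefSeq (assembly GRCm38.p6): 21689 matched, 91 did not, and 0 changed. For the 998 genes with several probe sets the one with the highest mean was kept.

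One group-means model was fitted to 14 arrays in 8 groups with limma 3.58.1 in R 4.3.3 (6 residual and 4.71 prior degrees of freedom), and the fit was tested on simulated data. Values after ± are standard errors. The members, lists and tests were chosen with earlier results of these data known. Members called between the SKO groups were to be given on every array, others by range, and up to 4 genes by size from each list. The number of arrays limits the precision. Alternatives are in the closing section.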

Additional observations from a re-analysis of the deposited data

How the results depend on the processing

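Of the 33 called differences averaged over both days none reversed, and those not named as lost in the text kept their calls under the alternatives that gave them a value: array weights, median centring, a robust prior that follows intensity, quantile normalization, a fit to the compared groups alone, the mean over probe sets, only genes above the median level, a replicate block, and leaving out each array. Called differences within or between days were followed by their counts and not gene by gene. Of 8 uncalled differences of the 9 members given on every array, Tnnt2 with MEF2C gained a call under 4 of 17 alternatives and Tnni1 against GFP under 2 of 10 (limma adjusted p = 0.0492 after quantile normalization and 0.0324 without SKO+Flag day 6 replicate 1). Tnnt2 was called both higher with MEF2C and lower with HDAC7 under 6 of 23 alternatives. Uncalled differences near 0 changed sign: Nr4a1 with MEF2C was -0.0086 after median centring and -0.0065 after quantile normalization, and leaving out each array gave -0.0043 to 0.0271 for it, -0.1228 to 0.0395 for Tnni1 with HDAC7 and -0.1097 to 0.0444 for Des with HDAC7. For the 22 members below the array median on every array, dim signal limits what can be seen. The setting with genes above the median level kept 7 members. Myom1, Tnni1, Des and Myod1 were not kept, so they drop out of its counts for MEF2C and HDAC7 against SKO+Flag as well. In that setting the counts of called members were 5 for SKO+MEF2C against SKO+HDAC7 (9 with all genes) and 7 for SKO+Flag against GFP (13). The counts were 2 for MEF2C at day 6 (1), 1 for MEF2C at day 10 (3) and 0 for day 10 against day 6 in SKO+HDAC7 (1). With the fit to the compared groups alone they were 2 for MEF2C at day 6, 2 for HDAC7 at day 6 and 2 at day 10 (4 and 4), and 1 for the days in SKO+Flag (3). The robust prior gave 2 for MEF2C at day 6 and 2 for the days in SKO+HDAC7, and array weights gave 4 for the days in SKO+MEF2C (2).

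Leaving out each array in turn gave 4 to 9 members for MEF2C (9 without SKO+Flag day 10 replicate 1, with Tnnt2, Actc1 and Myog gained), 5 to 5 for HDAC7, 8 to 9 for SKO+MEF2C against SKO+HDAC7, 11 to 15 for SKO+Flag against GFP, 0 to 1 and 1 to 3 for MEF2C at day 6 and day 10, 1 to 3 and 2 to 3 for HDAC7, and 1 to 3, 0 to 3 and 0 to 1 for the days in SKO+Flag, SKO+HDAC7 and SKO+MEF2C. For these ranges, and for single differences, only arrays of the compared groups were left out, and a range need not hold the count with all arrays. The 23 alternatives for calls in both senses left out arrays of every group. A group left with 1 array was assumed to vary like the others. For SKO+Flag against GFP, leaving out a GFP array gives no value over both days. Deviations of same-numbered arrays correlated at -0.086 to 0.184 within a day and -0.242 to 0.129 across days. These values show no strong common shift by experiment number and cannot settle whether the cultures were paired. As a replicate block over both days the number left 6 members for MEF2C and 5 for HDAC7; as a block within each day it gave 7 and 5, and it gave 2 for MEF2C at day 6 and 1 for the days in SKO+MEF2C. GFP arrays carry no experiment number, so no block was fitted for them.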
